A study of Mus musculus with 18 samples.

Results

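The miR-29 family was followed through small RNA counts of mouse eye, lung and testicle. Its members were taken by name, as the guide and passenger arms of miR-29a, miR-29b and miR-29c, and 7 of the 1431 counted miRNAs were members: mmu-miR-29a-3p, mmu-miR-29a-5p, mmu-miR-29b-3p, mmu-miR-29b-1-5p, mmu-miR-29b-2-5p, mmu-miR-29c-3p and mmu-miR-29c-5p. Small RNA was sequenced from left eye, right eye, left lung, right lung, left testicle and right testicle, with 3 libraries in each of these 6 groups. Every group came from male C57BL/6 mice 8 to 12 weeks old, with no treatment or engineered allele named. Nothing in the labels tells whether left and right organs were taken from the same mice, nor whether a library held 1 mouse or a pool, so p-values measure the spread between these libraries and n = 6 for an organ may overstate the replication. In these bulk samples, fewer cells that make a miRNA and less of it per cell cannot be told apart.

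miR-29 guides are the 3p arms, which guide Argonaute proteins to target mRNAs. They are known as repressors of extracellular matrix genes, among them the fibrillar collagens, elastin and fibrillin 1, and of the DNA methyltransferases Dnmt3a and Dnmt3b. In mouse lung the family is known for its fall during fibrosis, and in the ocular outflow pathway for its place in matrix turnover. The passenger, or 5p, arms are the strands that are mostly discarded. No target mRNA was measured here.

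Every member had its mature sequence in RefSeq (GRCm38.p6), and all 7 are shown because the results turn on telling them apart. Capitals mark the seed, bases 2 to 8, which pairs with targets.
mmu-miR-29a-3p: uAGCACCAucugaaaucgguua
mmu-miR-29b-3p: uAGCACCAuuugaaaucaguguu
mmu-miR-29c-3p: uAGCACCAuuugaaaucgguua
mmu-miR-29a-5p: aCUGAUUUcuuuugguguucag
mmu-miR-29b-1-5p: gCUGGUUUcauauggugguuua
mmu-miR-29b-2-5p: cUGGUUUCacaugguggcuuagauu
mmu-miR-29c-5p: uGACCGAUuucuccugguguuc
The 3 guides share the seed AGCACCA, whose complement in a target reads UGGUGCU, and no other of the 1679 mature miRNAs in the RefSeq table has it. Counted from 1 at the 5′ end, mmu-miR-29a-3p and mmu-miR-29c-3p differ by C10U alone over 22 bases. mmu-miR-29b-3p differs from mmu-miR-29c-3p by G18A, U21G and A22U and is 1 base longer. Its last 6 bases, AGUGUU, occur at the 3′ end of 2 mature miRNAs (0.119%), and in human cells this ending is known to direct miR-29b to the nucleus. Bases 9 to 11 read UUU in mmu-miR-29b-3p and mmu-miR-29c-3p, as in 1.43% of mature miRNAs, and UCU in mmu-miR-29a-3p, as in 3.22%. In human cells the uracils there are known for a faster decay of miR-29b and miR-29c.

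Each passenger arm comes from a single locus, and no seed is shared among the 4 of them. mmu-miR-29b-1-5p and mmu-miR-29b-2-5p have a run of 9 bases in common, CUGGUUUCA, and mmu-miR-29a-5p and mmu-miR-29c-5p a run of 8. The first run starts at base 2 of mmu-miR-29b-1-5p and base 1 of mmu-miR-29b-2-5p. The second starts at base 13 of mmu-miR-29a-5p and base 15 of mmu-miR-29c-5p. Lined up by these runs, the arms of each pair are alike over much of their length, and their seeds differ with the shifted 5′ ends. The 4 hairpins lie in a pair of clusters. Mir29a (chr6:31062660-31062747) and Mir29b-1 (chr6:31063023-31063093) sit 275 bases apart on the minus strand, and part of Mir29b-1 overlaps an exon of Gm27019, a long non-coding RNA. Mir29b-2 (chr1:195037040-195037120) and Mir29c (chr1:195037547-195037634) sit 426 bases apart on the plus strand. Both lie in an exon of the non-coding transcript A330023F24Rik and opposite an untranslated exon of Cd46. mmu-miR-29b-3p is made from both clusters with the same sequence, so its count cannot be split between them, while mmu-miR-29a-3p marks the chromosome 6 cluster and mmu-miR-29c-3p the chromosome 1 cluster. How the authors' counting assigned reads with a mismatch is not given in the sources used here. So how it kept mmu-miR-29a-3p and mmu-miR-29c-3p apart, or the passenger arms within each of those pairs, is not known.

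Total counts were 2451484 to 2680204 per eye library, 2538402 to 2790471 per lung library and 952608 to 1893132 per testicle library. Levels are given as counts per 1000000 (CPM) after scaling by the trimmed mean of M values (TMM). All 7 eye marker miRNAs were above all other libraries in every eye library, as were 4 of 5 lung markers in lungs and 5 of 6 testicle markers in testicles. The exceptions were the ciliated-cell miR-449a-5p, which was higher in every testicle library than in any lung library, and miR-880-3p, which was near 0 in some testicle libraries. The library right lung 1 stood apart, with the lowest lung value of 210 of 642 tested miRNAs (32.7%), a share not computed for the other lungs. At a total of 2597041 counts, it had a count for 696 miRNAs, against 782 to 852 in the other lungs. Its 5 fibroblast and smooth muscle markers summed to 48750 TMM CPM, against 38380 to 42980 in the other lungs, and its eye markers to 6597, against 2595 to 4599. Over the organs, the same 5 markers summed to 17580 to 25250 TMM CPM in eye libraries, 38380 to 48750 in lung libraries and 34330 to 42390 in testicle libraries, while 3 neuron markers, 1 of them also an eye marker, summed to 37400 to 68080 in eye libraries, 15.25 to 161.4 in lung libraries and 1622 to 2481 in testicle libraries. No fibroblast or neuron marker was at 0 in every library of an organ, while 1 testicle marker was at 0 in every eye library. The part of these differences in the results was not tested, and the fold changes and ratios that rest on the lung are also given without right lung 1. Leaving out that library also moved the TMM reference library, which is right eye 3 over all 18 libraries, to right eye 2. Such fits were therefore repeated with the reference held at right eye 3, a choice made after seeing the data.

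miR-29c followed a staircase over the organs, highest in eyes, lower in lungs and lowest in testicles, in both of its arms. miR-29a and miR-29b did not. The mix of guides moved with it: mmu-miR-29c-3p made up 41.4% ± 1.04 of the 3 guides' counts in eyes, 19.1% ± 1.41 in lungs and 11.9% ± 0.598 in testicles (SD, n = 6 each).

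mmu-miR-29c-3p, the guide of the chromosome 1 cluster, had lowest, median and highest values of 2496, 3077 and 4984 TMM CPM in eye libraries. In lung libraries these were 324, 1254 and 1513 TMM CPM, and in testicle libraries 426.3, 486.6 and 617.7 TMM CPM. Every eye library was above every lung library, as for 31.3% of tested miRNAs, and above every testicle library, as for 33%, while the lung overlapped the testicle through right lung 1 alone. Over all 642 tested miRNAs, 35.4% were called higher in eye than in lung at an adjusted p under 0.05 in edgeR's quasi-likelihood test, and 40.2% higher in eye than in testicle, while 27.4% were called higher in lung than in testicle. The log2 fold change of mmu-miR-29c-3p was 1.52 ± 0.28 (SE) in eye against lung (edgeR adjusted p = 0.000121). It was 2.69 ± 0.29 in eye against testicle (edgeR adjusted p = 2.51e-07) and 1.16 ± 0.28 in lung against testicle (edgeR adjusted p = 0.00109). The fitted levels differed 2.87-fold, 6.44-fold and 2.24-fold. Without right lung 1 the value was 1.10 in eye against lung and 1.37 in lung against testicle, or 1.31 and 1.38 with the TMM reference held, all called.

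mmu-miR-29c-5p, the passenger of the same hairpin, had lowest, median and highest values of 143.5, 178.6 and 187.5 TMM CPM in eye libraries. The lung libraries had 58.44, 78.74 and 102.4 TMM CPM, and the testicle libraries 13.95, 21.36 and 28.05 TMM CPM. Among tested miRNAs, 18.1% had every lung library above every testicle library, and this arm was one of them. The 3 organs did not overlap at all, on this scale or in CPM of the library totals. Only 11 of 642 tested miRNAs (1.71%) had every eye library above every lung library and every lung library above every testicle library, and mmu-miR-29c-5p was the family's member among them. Its log2 fold change was 1.13 ± 0.18 in eye against lung (edgeR adjusted p = 3.79e-05), 3.0 ± 0.20 in eye against testicle (edgeR adjusted p = 7.19e-10) and 1.88 ± 0.20 in lung against testicle (edgeR adjusted p = 1.86e-07). Without right lung 1 and with the reference held, it was 1.12 in eye against lung and 1.89 in lung against testicle, both called. The eye against lung call depended on the scaling. It was lost over all 18 libraries with left testicle 1 (0.44, edgeR adjusted p = 0.0572) or left testicle 3 (0.42, edgeR adjusted p = 0.0546) as the TMM reference, and with left and right summed (0.52, edgeR adjusted p = 0.0635). It was also lost without right eye 2 (0.40, edgeR adjusted p = 0.0888), where the reference moved to left testicle 3, but not with the reference held (1.11, edgeR adjusted p = 0.000171). Both miR-29c arms belonged to the 24 tested miRNAs (3.74%) called higher in eye than in lung and in lung than in testicle.

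**Figure D1:**
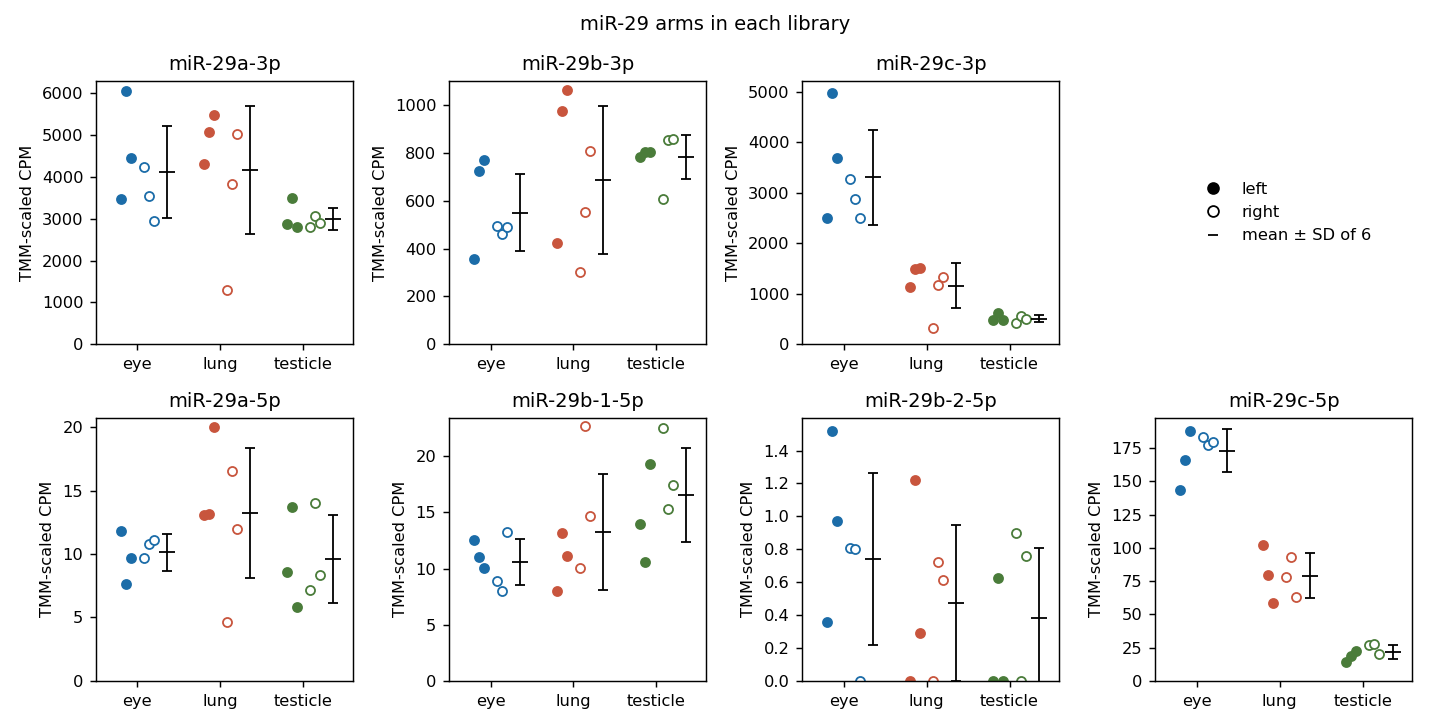
TMM CPM (linear axis, 1 panel per arm with its own range) of the 7 miR-29 arms in the 6 eye, 6 lung and 6 testicle libraries; filled points are left, open points right, and the bar is the mean ± SD of 6. mmu-miR-29c-3p and mmu-miR-29c-5p step down over the organs, with right lung 1 at 324 TMM CPM for mmu-miR-29c-3p, while the ranges of the other arms overlap between organs.

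mmu-miR-29a-3p, the most abundant member in every organ by mean, had lowest, median and highest values of 2940, 3891 and 6055 TMM CPM in eyes. In the lung they were 1301, 4666 and 5483 TMM CPM, and in testicles 2798, 2888 and 3491 TMM CPM. All 3 organs overlapped, and none of its differences passed the test. The log2 fold change was 0.00 ± 0.25 in eye against lung, 0.45 ± 0.25 in eye against testicle and 0.45 ± 0.25 in lung against testicle, with edgeR adjusted p of 1, 0.106 and 0.105. All 3 values depended on the scaling. In eye against testicle it was called higher with left lung 1 as the TMM reference (0.94, edgeR adjusted p = 0.00145), on library totals (0.71, edgeR adjusted p = 0.0263) and in DESeq2 (0.49, adjusted p = 0.0414). In lung against testicle it was called at 0.66 to 1.03 with left lung 1, left testicle 1 or left testicle 3 as reference, relative log expression, library totals, DESeq2 or summed sides. In eye against lung it was called lower with left testicle 1 (-0.70, edgeR adjusted p = 0.0166) or left testicle 3 (-0.73, edgeR adjusted p = 0.0111) as reference and with sides summed (-0.64, edgeR adjusted p = 0.0435). Without right lung 1 and with the reference held, it was -0.20 in eye against lung (edgeR adjusted p = 0.293), 0.46 in eye against testicle (edgeR adjusted p = 0.0124) and 0.66 in lung against testicle (edgeR adjusted p = 0.00158). With the reference moved to right eye 2, the same fit gave -0.41 in eye against lung (edgeR adjusted p = 0.0248). It then gave 0.24 in eye against testicle (edgeR adjusted p = 0.138), uncalled, and 0.65 in lung against testicle (edgeR adjusted p = 0.00108).

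Its passenger, mmu-miR-29a-5p, was a low arm, with 6 to 68 counts in a library. It averaged 10.1 ± 1.49 TMM CPM in eyes, 13.2 ± 5.14 in lungs and 9.61 ± 3.44 in testicles (SD, n = 6 each). The organs overlapped and no difference passed the test. Its log2 fold changes were -0.37 ± 0.28 in eye against lung, 0.04 ± 0.30 in eye against testicle and 0.41 ± 0.30 in lung against testicle, with edgeR adjusted p of 0.278, 0.904 and 0.221. With all 18 libraries under another scaling, mmu-miR-29a-5p was called higher in lung against testicle. The value there was 0.64 to 1.02 with left lung 1, left testicle 1 or left testicle 3 as TMM reference, relative log expression, library totals, DESeq2 or summed sides. It was called lower in eye against lung with left testicle 1 (-1.04, edgeR adjusted p = 0.0037) or left testicle 3 (-1.07, edgeR adjusted p = 0.00244) as reference and with sides summed (-1.01, edgeR adjusted p = 0.0151). Leaving out right lung 1 with the reference held gave -0.55 in eye against lung (edgeR adjusted p = 0.0495) and 0.60 in lung against testicle (edgeR adjusted p = 0.037).

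mmu-miR-29b-3p, the guide that both clusters make, ran the other way by mean. Its lowest, median and highest values were 358.4, 493.9 and 770.4 TMM CPM in eyes, 300.8, 680.7 and 1063 in lungs, and 607.9, 803 and 857.3 in testicles. The organs overlapped, and the log2 fold changes of -0.31 ± 0.27 in eye against lung, -0.52 ± 0.27 in eye against testicle and -0.22 ± 0.27 in lung against testicle did not pass (edgeR adjusted p = 0.35, 0.0856 and 0.476). The eye against testicle value went with the TMM reference. It was called lower over all 18 libraries with right eye 2 (-0.76, edgeR adjusted p = 0.0162), left testicle 1 (-0.68, edgeR adjusted p = 0.03) or left testicle 3 (-0.66, edgeR adjusted p = 0.0327) as reference. It was called, at -0.70 to -0.81, in the 7 of 18 left-out fits in which the reference had moved to right eye 2. The 6 of these that could be repeated with the reference held gave -0.48 to -0.59, uncalled. In eye against lung it was called lower with left testicle 1 (-0.97) or left testicle 3 (-1.01) as reference and with sides summed (-0.93). With right lung 1 left out and the reference held, mmu-miR-29b-3p was -0.46 in eye against lung (edgeR adjusted p = 0.119) and -0.05 in lung against testicle (edgeR adjusted p = 0.875).

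mmu-miR-29b-1-5p, the passenger of the chromosome 6 copy, had 13 to 63 counts in a library. It averaged 10.6 ± 2.04 TMM CPM in eyes, 13.3 ± 5.17 in lungs and 16.5 ± 4.19 in testicles (SD, n = 6 each), with overlapping ranges. It was the family's member called lower in eye than in testicle, where 39.1% of tested miRNAs were, with a log2 fold change of -0.62 ± 0.24 (edgeR adjusted p = 0.0289). That call was lost without left eye 2, left eye 3, right eye 1 or left testicle 3 (-0.50 to -0.60, edgeR adjusted p = 0.0526 to 0.0855), and, with the TMM reference held, without right eye 2 (-0.55, edgeR adjusted p = 0.0652) or right testicle 1 (-0.53, edgeR adjusted p = 0.07). It was also lost on library totals (-0.34, edgeR adjusted p = 0.199), with no filter (-0.67, edgeR adjusted p = 0.0891) and with left lung 1 as the TMM reference (-0.12, edgeR adjusted p = 0.678). The differences were -0.30 ± 0.23 in eye against lung and -0.31 ± 0.24 in lung against testicle and did not pass (edgeR adjusted p = 0.286 and 0.244). In eye against lung, where 24.5% of tested miRNAs were called lower, it was called with left testicle 1 (-0.95) or left testicle 3 (-0.98) as reference and with sides summed (-0.89). It was called there without right eye 2, right eye 3, left lung 1 or right lung 1 too, all fits in which the reference had moved. With the reference held, leaving out right lung 1 gave -0.43 (edgeR adjusted p = 0.101).

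mmu-miR-29b-2-5p, the passenger of the chromosome 1 copy, did not pass the filter on low counts and was not tested. It had 12 counts summed over the eye, 9 over the lung and 3 over the testicle, with 0 to 4 in a library and 0 in 6 of 18 libraries. Where an arm had 0 counts, up to 3 remain possible, or 1.12 to 1.22 CPM for an eye library, 1.08 to 1.18 for a lung library and 1.59 to 3.15 for a testicle library, so differences in this arm were not detectable at this depth. Of the counts of both miR-29b passengers, mmu-miR-29b-1-5p held 168 of 180 in eyes (93.3%, exact 95% interval 88.6 to 96.5%), 240 of 249 in lungs (96.4%, 93.2 to 98.3%) and 122 of 125 in testicles (97.6%, 93.1 to 99.5%). Nearly all miR-29b passenger counts in each organ were thus assigned to the chromosome 6 copy. This held in the eye too, where mmu-miR-29c-3p from the other cluster was highest. Both miR-29b passengers are alike over much of their length, and how reads with a mismatch were assigned is not given. The exact intervals are Clopper-Pearson and cover counting error only, since molecular identifiers are not named, and passenger counts need not follow the guides made from the same copy.

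Of the 6 tested members, 2 were higher and 0 lower in eye against lung, 2 higher and 1 lower in eye against testicle, and 2 higher and 0 lower in lung against testicle, where 49.1% of all were lower. The counts of higher members were near the share over all tested miRNAs in eye against lung (35.4%), in eye against testicle (40.2%) and likewise for lung against testicle (27.4%), so they set nothing apart about the family as a whole. Which members they were did not change: both miR-29c arms each time. Over all tested miRNAs the median log2 fold change was 0.00 for eye against lung, 0.05 for eye against testicle and -0.90 for lung against testicle. Relative to that last median, mmu-miR-29a-3p stood at 1.35 and mmu-miR-29b-3p at 0.68. That median depended on the filter: over all 1431 miRNAs, with no filter, it was 0.00, and relative to it mmu-miR-29a-3p stood at 0.47 and mmu-miR-29b-3p at -0.20. With other scalings or with sides summed, the filtered medians lay between -0.54 and 0.00, between -0.18 and 0.56 and between -0.91 and -0.28. In 5 of those fits mmu-miR-29b-3p and mmu-miR-29b-1-5p turned to higher in lung than in testicle, uncalled.

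**Figure D2:**
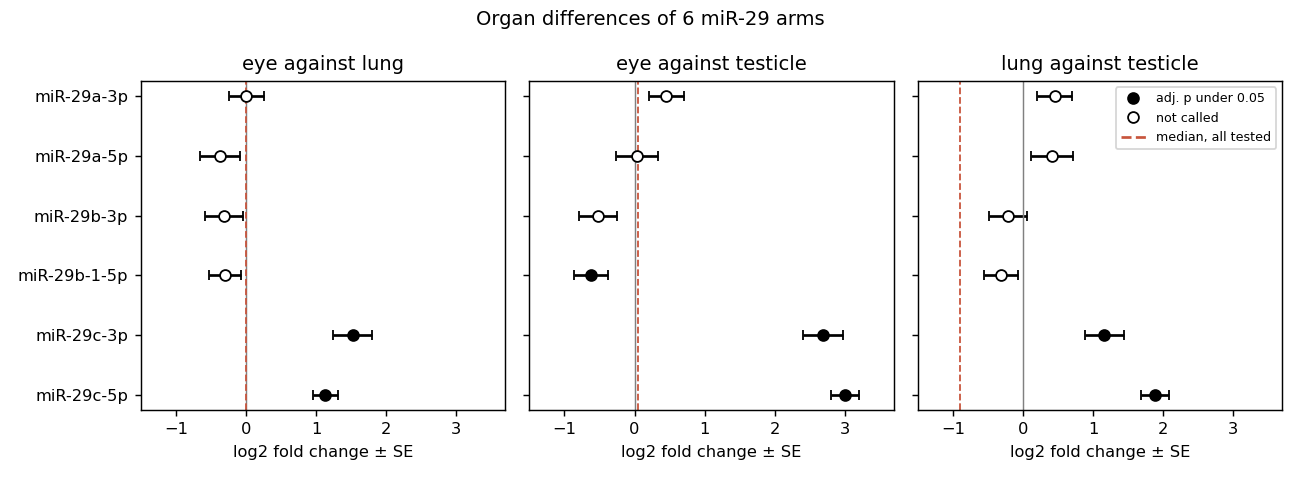
log2 fold change ± SE of the 6 tested miR-29 arms for each pair of organs, from edgeR over 18 libraries; filled points had an adjusted p under 0.05, the grey line is 0 and the dashed line is the median of all 642 tested miRNAs (-0.90 in lung against testicle). Both miR-29c arms lie right of 0 in each panel, from 1.13 to 3.0, and the other 4 arms between -0.62 and 0.45.

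Ratios of 2 arms within a library do not depend on the scaling between organs. They set the clusters side by side. The ratio of mmu-miR-29a-3p to mmu-miR-29c-3p counts was 1.17 to 1.39 in eye libraries, 3.27 to 4.01 in lung libraries and 5.44 to 6.56 in testicle libraries. No library of an organ came near another organ's range, and right lung 1, at 4.01, stayed with the other lungs. On the log2 scale the ratio averaged 0.32 ± 0.09 in eyes, 1.86 ± 0.11 in lungs and 2.56 ± 0.09 in testicles (SD, n = 6 each). The differences were -1.54 ± 0.06 (SE) in eye against lung, -2.24 ± 0.05 in eye against testicle and -0.70 ± 0.06 in lung against testicle. Each had an exact two-sided permutation p of 0.00216, the smallest that 6 against 6 libraries can give (adjusted p = 0.00649 over 21 ratio tests between organs). With right lung 1 left out they were -1.51 in eye against lung and -0.73 in lung against testicle.

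mmu-miR-29b-3p moved against mmu-miR-29c-3p as well. Its ratio to mmu-miR-29c-3p was 0.144 to 0.209 in eye libraries, 0.372 to 0.929 in lung libraries and 1.30 to 1.74 in testicle libraries. So mmu-miR-29c-3p counts exceeded mmu-miR-29b-3p counts in every eye and lung library and were below them in every testicle library. The log2 differences were -1.85 ± 0.21 in eye against lung, -3.22 ± 0.12 in eye against testicle and -1.37 ± 0.20 in lung against testicle, each with an exact permutation p of 0.00216 (adjusted p = 0.00649). Leaving out right lung 1 gave -1.72 in eye against lung and -1.49 in lung against testicle.

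The ratio of mmu-miR-29b-3p to mmu-miR-29a-3p was 0.104 to 0.173 in eye libraries, 0.0986 to 0.231 in lung libraries and 0.217 to 0.296 in testicle libraries. Eye and lung overlapped (log2 difference -0.31 ± 0.21, exact permutation p = 0.175, adjusted p = 0.314). Eye and testicle did not overlap (-0.98 ± 0.14, exact permutation p = 0.00216, adjusted p = 0.00649). Lung and testicle overlapped through right lung 1 but differed (-0.67 ± 0.19, exact permutation p = 0.00649, adjusted p = 0.017). The differences were -0.21 in eye against lung and -0.77 in lung against testicle without right lung 1. By these ratios, 8 of 21 tests between organs passed, and all 8 were ratios of 2 guides. Any 2 guide ratios fix the last one, so these tests are not independent. The other tests hold a passenger arm, several with few counts. Many miRNAs differed between organs: 35.4% of all tested were higher and 24.5% lower in eye against lung. These shares were 40.2% and 39.1% in eye against testicle, and 27.4% and 49.1% in lung against testicle. How many other pairs of miRNAs would pass was not tested.

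**Figure D3:**
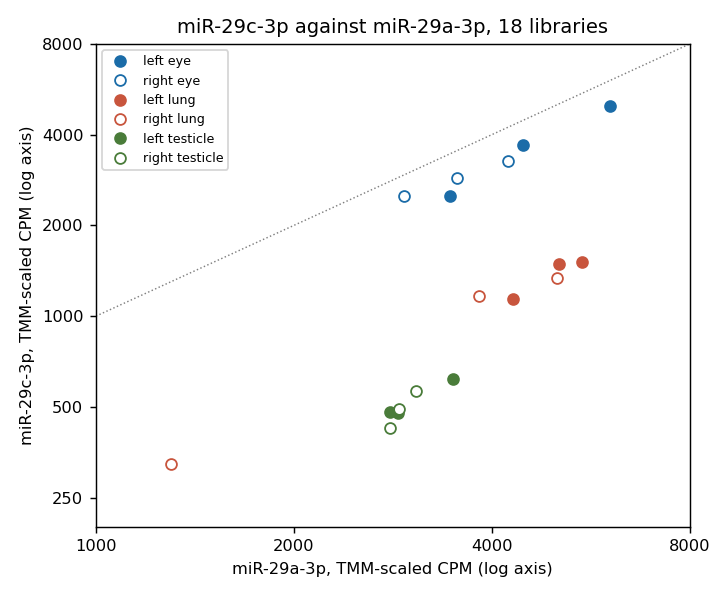
mmu-miR-29c-3p (vertical) against mmu-miR-29a-3p (horizontal) in TMM CPM, both log axes, 1 point per library, coloured by organ and filled for left; the dotted line marks equal levels. The organs form separate bands parallel to that line, with mean ratios of mmu-miR-29a-3p to mmu-miR-29c-3p of 1.25 in eyes, 3.63 in lungs and 5.89 in testicles, and right lung 1 at the lower left lies on the lung's band.

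By mean, the summed level of the 3 guides was highest in the eye, a sum that was not tested. The 3 guides summed to 7971 ± 2160 TMM CPM in eyes, 6017 ± 2230 in lungs and 4283 ± 374 in testicles (SD, n = 6 each). The ranges were 5938 to 11760, 1926 to 8060 and 3832 to 4911 TMM CPM in that organ order, so lung overlapped both others and eye did not overlap testicle. The overlap of lung with testicle came through right lung 1 alone, at 1926, since the other 5 lungs had 5543 to 8060 TMM CPM. mmu-miR-29a-3p made up 51.7% ± 1.94 of the guides in eyes, 69.2% ± 2.27 in lungs and 69.8% ± 1.90 in testicles. mmu-miR-29b-3p made up 6.94% ± 1.23 in eyes, 11.7% ± 2.91 in lungs and 18.3% ± 1.80 in testicles. Since the guides share 1 seed, these are shares of counts with that seed, and arms may differ in how well they are ligated and amplified.

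**Figure D4:**
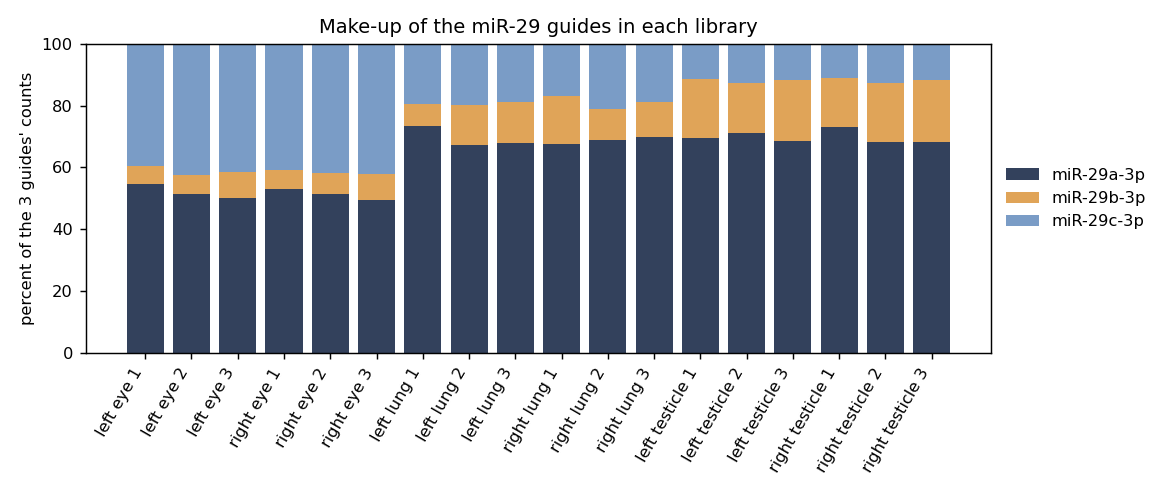
Share (percent, linear axis from 0 to 100) of mmu-miR-29a-3p, mmu-miR-29b-3p and mmu-miR-29c-3p in the counts of the 3 guides, 1 stacked bar per library. mmu-miR-29c-3p at the top takes 39.5 to 42.4% in eye libraries, 16.8 to 21.1% in lung libraries and 11.1 to 12.6% in testicle libraries.

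Ratios between passengers were chosen after the values were seen, so they are given as a description with no test. mmu-miR-29c-5p was 16.9 times mmu-miR-29a-5p in eyes, 6.32 times in lungs and 2.26 times in testicles, as geometric means over 6 libraries. The log2 differences were 1.42 ± 0.35 in eye against lung, 2.90 ± 0.27 in eye against testicle and 1.49 ± 0.41 in lung against testicle, and without right lung 1 the values with the lung were 1.69 and 1.21. Against mmu-miR-29b-1-5p, its ratio was 16.2 in eyes, 6.10 in lungs and 1.31 in testicles. Those log2 differences were 1.41 ± 0.29, 3.63 ± 0.21 and 2.22 ± 0.29 in the same order of comparisons, and without right lung 1 the first was 1.47 and the last 2.15. These arms share no seed. Still, mmu-miR-29a-5p and mmu-miR-29c-5p are alike over much of their length once lined up by the run of 8 bases they share. How reads with a mismatch were assigned is not given, and its part in these ratios was not tested.

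Guides outnumbered passengers at every hairpin, and the hairpins differed in how far. As geometric means, there were 392 mmu-miR-29a-3p counts per mmu-miR-29a-5p count in eyes, 308 in lungs and 311 in testicles. miR-29b had 46.5 in eyes, 47.5 in lungs and 46.3 in testicles, with both passengers summed. miR-29c had 18.6 in eyes, 13.4 in lungs and 23.4 in testicles. The order miR-29a, miR-29b, miR-29c held for these means in each organ. None of the 9 organ differences passed: the log2 difference was 0.35 ± 0.27, 0.33 ± 0.28 and -0.01 ± 0.21 for miR-29a and -0.03 ± 0.36, 0.01 ± 0.28 and 0.04 ± 0.36 for miR-29b, taking eye against lung first, then eye against testicle, then lung against testicle. For miR-29c it was 0.47 ± 0.42, -0.33 ± 0.23 and -0.80 ± 0.42, with the lowest exact permutation p of the 9 at 0.0693 (adjusted p = 0.162) in lung against testicle, where leaving out right lung 1 gave -0.46. In eye against lung leaving it out gave 0.13 for miR-29c. A miss of the threshold at these errors does not show that the ratios were alike.

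The widest single departure was in right lung 1. There mmu-miR-29c-5p was 19.4% of its hairpin's counts (exact 95% interval 17.0 to 21.9%), against 3.72 to 8.24% in the other lungs. The guides were low in that library and this passenger was not: mmu-miR-29c-3p lay at -2.04 on the log2 scale against the median of the other 5 lungs, mmu-miR-29a-3p at -1.95 and mmu-miR-29b-3p at -1.42, while mmu-miR-29c-5p was at -0.03 and mmu-miR-29b-1-5p at -0.36. mmu-miR-29a-5p was low too, at -1.33. Among 225 miRNAs with at least 50 TMM CPM in lungs, 87 (38.7%) were lowest in right lung 1, and mmu-miR-29c-3p had the place 14 from the lowest by this log2 value. The part of the library's marker differences, given above, was not tested.

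**Figure D5:**
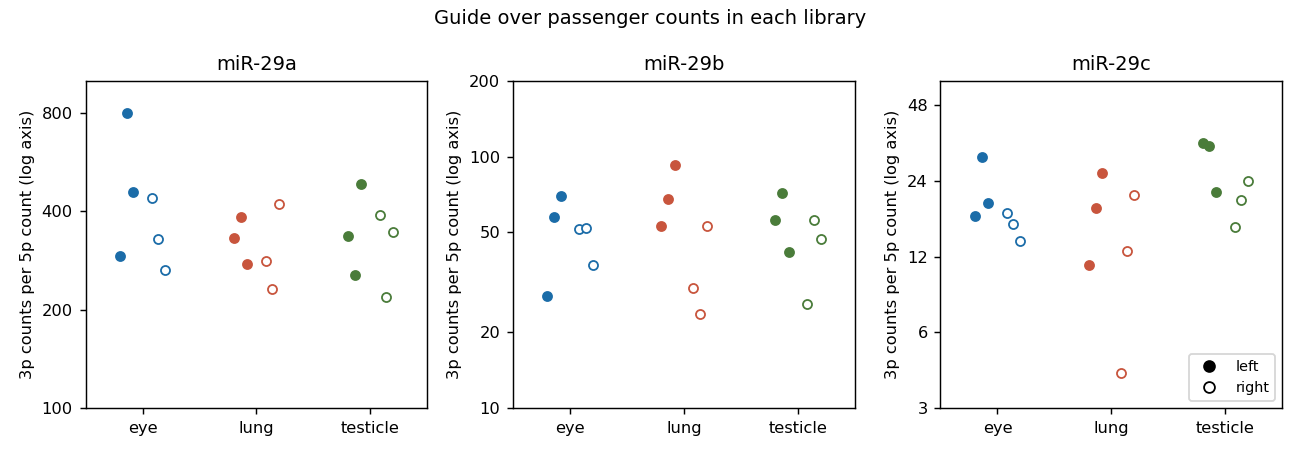
Guide (3p) counts per passenger (5p) count of the same miRNA (log axes with their own ranges) in each library, with filled points left and open points right; miR-29b has both passengers summed. The 3 organs overlap in each panel, and right lung 1 is the low miR-29c point at 4.15.

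Within an organ, the guides of the 2 clusters moved together from library to library. Over 6 libraries, mmu-miR-29a-3p and mmu-miR-29c-3p had a Pearson r of 0.97 in eyes, 0.99 in lungs and 0.92 in testicles. Their exact permutation p values were 0.00278, 0.00694 and 0.00694 (adjusted p = 0.0209, 0.0243 and 0.0243 over 15 relations), and Spearman's rho was 0.94 in each organ (exact permutation p = 0.0167, adjusted p = 0.0501). Without the 2 libraries farthest from the median of mmu-miR-29a-3p, r was 0.95 in eyes, 0.95 in lungs and 0.63 in testicles. The values share the library's scaling, and r over other pairs of miRNAs was not computed. In lungs, 87 of 225 miRNAs with at least 50 TMM CPM (38.7%) were lowest in right lung 1. The guides mmu-miR-29a-3p and mmu-miR-29c-3p differ at 1 base, and how reads with a mismatch were assigned is not given. The part of either in these r was not tested. mmu-miR-29c-3p and its own passenger did not show such a relation, with r of 0.23 in eyes, -0.17 in lungs and -0.07 in testicles (exact permutation p = 0.643, 0.71 and 0.912, adjusted p = 0.742, 0.761 and 0.912) and rho of 0.37, -0.54 and -0.03 (exact permutation p = 0.497, 0.297 and 1, adjusted p = 0.532, 0.371 and 1). Without the 2 farthest libraries these r were 0.84, -0.68 and -0.56.

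mmu-miR-29b-3p followed mmu-miR-29a-3p in lungs (r = 0.84, exact permutation p = 0.00972, adjusted p = 0.0243, and rho = 0.94, exact permutation p = 0.0167, adjusted p = 0.0501). It followed mmu-miR-29c-3p there too (r = 0.84, exact permutation p = 0.00139, adjusted p = 0.0209, and rho = 1.0, exact permutation p = 0.00278, adjusted p = 0.0417). Without the 2 libraries farthest from the median, r was 0.97 in both lung relations. In the eye, r was 0.72 with mmu-miR-29a-3p and 0.84 with mmu-miR-29c-3p, and in testicles 0.34 and 0.64, none past the adjusted threshold (adjusted p = 0.142, 0.0756, 0.483 and 0.258, exact permutation). Without the 2 farthest libraries these r were 0.87 and 0.54 in eyes and 0.65 and 0.45 in testicles. The miR-29a arms had opposite signs in different organs. Their r was -0.93 in eyes (exact permutation p = 0.00833, adjusted p = 0.0243), 0.90 in lungs (0.0708, adjusted 0.118) and 0.83 in testicles (0.0167, adjusted 0.0358), with rho of -0.89, 0.60 and 0.83 (adjusted p = 0.0714, 0.33 and 0.109). With the 2 farthest libraries left out, r of the miR-29a arms was -0.93 in eyes, 0.61 in lungs and 0.84 in testicles. The passenger had 20 to 33 counts per eye library behind the eye values.

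No member was called different between left and right. In edgeR, 0 of 6 members were called in left against right eye, lung or testicle, where 0% of all tested miRNAs were called, and 0 over all organs or in the test of whether the side difference varied between organs. None had an unadjusted p under 0.05 in the side comparisons (lowest 0.104), and DESeq2 called none of the members. With 3 libraries a side, a miss of the threshold does not show that the sides were alike. The 3 guides averaged higher on the left in each organ. mmu-miR-29a-3p averaged 4659 ± 1310 TMM CPM in left eyes and 3574 ± 650 in right eyes, 4952 ± 596 in left lungs and 3383 ± 1900 in right lungs, and 3059 ± 377 in left testicles and 2919 ± 136 in right testicles (SD, n = 3 each). Left and right overlapped each time. These means use the TMM scaling over all 18 libraries. Fold changes between sides came from fits with TMM over the 6 libraries of an organ, so they need not match the ratios of these means. The left over right log2 fold change was 0.39 ± 0.22 in eyes, 0.50 ± 0.42 in lungs and 0.26 ± 0.14 in testicles.

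mmu-miR-29c-3p had left over right log2 fold changes of 0.37 ± 0.24, 0.51 ± 0.46 and 0.28 ± 0.17 in eye, lung and testicle, and mmu-miR-29b-3p had 0.35 ± 0.27, 0.49 ± 0.45 and 0.24 ± 0.16. The adjusted p of these 9 edgeR comparisons was 0.574 to 0.982. Without right lung 1 the lung values were 0.15 for mmu-miR-29a-3p, 0.24 for mmu-miR-29b-3p and 0.12 for mmu-miR-29c-3p. The 3 guides share their scaling and move together, so they are not independent signs of a side. None of the 21 side tests of ratios within a library passed, with a lowest exact permutation p of 0.2 where 3 against 3 cannot go below 0.1. The ratio of mmu-miR-29a-3p to mmu-miR-29c-3p was 1.27 in left eyes and 1.23 in right eyes, 3.60 in left lungs and 3.67 in right lungs, and 5.84 in left testicles and 5.94 in right testicles.

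The tested miRNAs outside the family whose log2(TMM CPM + 1) most resembled each guide over the 18 libraries differed between the guides. For mmu-miR-29c-3p they were miR-338-3p (r = 0.978), miR-31-5p (r = 0.965) and miR-361-5p (r = 0.948). miR-31-5p averaged 6311 ± 457 TMM CPM in eyes, 1507 ± 467 in lungs and 435.7 ± 54.2 in testicles, and miR-338-3p averaged 652.6 ± 250, 196.3 ± 76.2 and 43.27 ± 13.1 in the same order. For mmu-miR-29a-3p they were miR-101a-3p (r = 0.893), miR-140-5p (0.839) and miR-130a-5p (0.832), and for mmu-miR-29b-3p miR-324-5p (0.812), miR-148b-3p (0.793) and miR-208a-3p (0.743). Few counts lay behind the r of miR-130a-5p and miR-208a-3p. miR-130a-5p averaged 5.11 ± 0.839 TMM CPM in eyes, 4.38 ± 2.39 in lungs and 3.26 ± 0.966 in testicles. miR-208a-3p averaged 0.185 ± 0.205, 10.6 ± 12.8 and 3.87 ± 3.35 in the same order. All of these r describe the 18 libraries, which share organs, and carry no test. The guides themselves had r of 0.68 between mmu-miR-29a-3p and mmu-miR-29c-3p, 0.49 between mmu-miR-29a-3p and mmu-miR-29b-3p and -0.10 between mmu-miR-29b-3p and mmu-miR-29c-3p over the same libraries.

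Other miRNAs known to restrain matrix genes were set beside the family from a list. Of 12 tested, 2 were higher and 5 lower in eye against lung, 6 higher and 0 lower in eye against testicle, and 8 higher and 0 lower in lung against testicle, with median log2 fold changes of -0.53, 0.80 and 1.29. Over all tested miRNAs, 35.4% were higher and 24.5% lower in eye against lung, 40.2% higher and 39.1% lower in eye against testicle, and 27.4% higher and 49.1% lower in lung against testicle, with medians of 0.00, 0.05 and -0.90. miR-200c-3p, an epithelial miRNA that represses Zeb1 and Zeb2, averaged 1875 ± 331 TMM CPM in eyes, 10240 ± 1330 in lungs and 413.5 ± 67.6 in testicles. Its log2 fold change was -2.45 ± 0.16 in eye against lung (edgeR adjusted p = 9.68e-10). miR-30a-5p was lower in eye than in lung (-1.53 ± 0.25, edgeR adjusted p = 3.91e-05), as was let-7d-5p (-0.81 ± 0.15, edgeR adjusted p = 0.000113). miR-26a-5p, a broadly abundant miRNA, averaged 41740 ± 4010 TMM CPM in eyes, 45100 ± 7560 in lungs and 41990 ± 4510 in testicles, and none of its differences passed.

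Of 9 tested miRNAs known to promote matrix deposition, 1 was higher and 4 lower in eye against lung, 1 higher and 5 lower in eye against testicle, and 2 higher and 4 lower in lung against testicle (median log2 fold changes -0.33, -0.68 and -0.45). The shares over all tested miRNAs, higher then lower, were 35.4% and 24.5%, 40.2% and 39.1%, and 27.4% and 49.1% for the same comparisons (medians 0.00, 0.05 and -0.90). miR-21a-5p, known for its rise in fibrosis, averaged 5935 ± 617 TMM CPM in eyes, 18460 ± 4200 in lungs and 9522 ± 1780 in testicles, and was lower in eye than in lung by edgeR (-1.63 ± 0.18, adjusted p = 5.15e-07). miR-34a-5p, a p53 target, averaged 3102 ± 308 in eyes, 7844 ± 1530 in lungs and 51120 ± 9290 in testicles, and was lower in lung than in testicle (-2.70 ± 0.15, edgeR adjusted p = 7.55e-11). No difference passed for miR-125b-5p or miR-199a-5p.

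Of 4 miRNAs outside the family known to target DNA methyltransferases, 1 was higher and 1 lower in eye against lung, 0 higher and 3 lower in eye against testicle, and 0 higher and 1 lower in lung against testicle (median log2 fold changes -0.47, -0.88 and -0.21). Over all tested miRNAs the lower share was 24.5%, 39.1% and 49.1% and the higher share 35.4%, 40.2% and 27.4% for these comparisons. miR-148a-3p, which targets Dnmt1, averaged 618.6 ± 416 TMM CPM in eyes, 291.1 ± 79.2 in lungs and 1148 ± 397 in testicles. It was higher in eye than in lung (1.06 ± 0.32, edgeR adjusted p = 0.00796) and lower in eye than in testicle (-0.90 ± 0.32, edgeR adjusted p = 0.0155). miR-143-3p, a smooth muscle miRNA, was lower in eye than in lung (-0.94 ± 0.12, edgeR adjusted p = 2.22e-06) and than in testicle (-0.90 ± 0.12, edgeR adjusted p = 2.89e-06). These lists are small and were drawn up from known roles, and no comparison of them with the family was tested.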

How the data were processed

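The authors deposited raw whole-number counts of mature miRNAs, a table for each library, as the file headers and values show. The submitters' processing notes name GRCm38.p6. Aligner, counter, handling of multi-mapping reads and molecular identifiers: not given in the sources used here. Per the labels' protocols, RNA came from a spin-column kit and libraries from BGI-500 procedures. Tests ran in edgeR 4.0.16 under R 4.3.3 (TMM, filterByExpr by group, quasi-likelihood test, Benjamini-Hochberg over the 642 miRNAs that passed; 487, 430 and 464 within eye, lung and testicle), with all 18 libraries in 6 groups for organs and 6 libraries for sides. An organ was the mean of its left and right group. Alternatives used DESeq2 1.42.0, other scalings and filters, pseudocounts and left-out libraries. Ratios used log2 of counts plus 0.5 and an exact permutation in Python 3.11.15 with NumPy 2.4.6. SciPy 1.17.1 gave their Benjamini-Hochberg adjustment and the exact intervals. Intervals and floors (3 counts) cover counting error only. The fit was tested on simulated counts. For eye against lung it recovered 20% of 1.5-fold, 58.5% of 2-fold and 92.2% of 4-fold changes, with 2.92% of calls false. For left against right it recovered 16.3% of 1.5-fold changes in eyes, 12% in lungs and 18.4% in testicles. Of 2-fold changes it recovered 48% in eyes, 25% in lungs and 47.2% in testicles. A miss of the threshold at such sizes thus does not show that levels were alike.

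The text names all members, the 3 miRNAs nearest to each guide and up to 4 per list by mean CPM; any other name was chosen after its values were seen. The members and lists were chosen with earlier results of these data known. Libraries were treated as unpaired: r of same-numbered left and right libraries was -0.42 to 0.39, and 4 of 36 pairs across organs were over 0.1, which does not show that they came from different mice.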

Additional observations from a re-analysis of the deposited data

Results flagged for a closer look

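In 45 sets of 6 libraries (each member or ratio in each organ), 2 held a library whose gap to its nearest neighbour over the set's range was above Dixon's 95% critical value; chance gives about 1 in 20. The first was mmu-miR-29c-3p in the lung, where right lung 1 had 324.0 TMM CPM, against 1140 to 1513 in the other 5 lungs. The second was mmu-miR-29b-3p in the testicle, where right testicle 1 had 607.9 TMM CPM, against 782.4 to 857.3 in the other 5 testicles. The eye markers of right testicle 1 summed to 38880 TMM CPM, against 17360 to 26860 in the other testicles. It also had the lowest TMM factor of all libraries, 0.7274. The part of either was not tested. Without right testicle 1 and with the TMM reference held at right eye 3, mmu-miR-29b-3p was -0.59 in eye against testicle (edgeR adjusted p = 0.0682). With the reference moved to right eye 2, it was -0.81 (edgeR adjusted p = 0.0174).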

How the results depend on the processing

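Every call of mmu-miR-29c-3p between organs and every ratio of 2 guides that passed kept direction and call under all alternatives run. The counts of members called did not. Higher in eye against lung fell to 1 and lower came to 4 with left testicle 1 or left testicle 3 as the TMM reference or with left and right summed. Higher in eye against testicle came to 3 with left lung 1 as reference, on library totals and in DESeq2, where mmu-miR-29a-3p was called, and without right lung 1 with the reference held. Lower in eye against testicle was 0 with left lung 1 as reference, on library totals or with no filter, and 2 with left testicle 1, left testicle 3 or right eye 2 as reference or with the replicate block, which called mmu-miR-29b-3p (-0.54, adjusted p = 0.0322), gave mmu-miR-29a-3p 0.03 in eye against lung and changed no other call. Higher in lung against testicle was 4 with left lung 1, left testicle 1 or left testicle 3 as reference, relative log expression, library totals, DESeq2 or sums. There mmu-miR-29b-1-5p turned to 0.24, 0.19, 0.24, 0.10 and 0.16, and mmu-miR-29b-3p to 0.35, 0.29, 0.35, 0.20 and 0.36 (left lung 1, left testicle 1, left testicle 3, totals, sums). mmu-miR-29a-5p in eye against testicle was -0.11 with left testicle 1, -0.08 with left testicle 3, -0.17 with right eye 2, -0.02 with no filter and with identical names kept once, and -0.03 with sums. On totals, left against right was 0.04 for mmu-miR-29a-5p and mmu-miR-29c-5p in the eye, and 0.11 in the lung and 0.00 over all organs for mmu-miR-29c-5p. For the ratios, miR-29a guide over passenger in lung against testicle was 0.03 with a pseudocount of 1 and 0.29 with 5, which also gave 0.60 in eye against testicle (exact permutation, adjusted p = 0.0455); with 5, mmu-miR-29b-1-5p over mmu-miR-29b-2-5p was 0.06 in eye against testicle and 0.57 in lung against testicle (adjusted p = 0.0253).

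Leaving out 1 library moved the count in eye against lung between 1 and 2 higher and 0 and 4 lower, in eye against testicle between 0 and 2 lower, and in lung against testicle between 2 and 4 higher. Left-out values spanned -0.74 to 0.17 for mmu-miR-29a-3p in eye against lung, -0.23 to 0.27 for mmu-miR-29a-5p in eye against testicle, and -0.48 to 0.29 for mmu-miR-29b-1-5p and -0.38 to 0.40 for mmu-miR-29b-3p in lung against testicle. For sides they spanned -0.27 to 0.08 (mmu-miR-29a-5p, eye), -0.27 to 0.46 (mmu-miR-29a-5p, testicle), -0.41 to 0.06 (mmu-miR-29b-1-5p, testicle) and -0.24 to 0.14 (mmu-miR-29c-5p, lung). Guide over passenger spanned -0.12 to 0.09 for miR-29a in lung against testicle, and for miR-29b -0.24 to 0.16, -0.17 to 0.16 and -0.15 to 0.24 for eye against lung, then eye against testicle, then lung against testicle. mmu-miR-29b-1-5p over mmu-miR-29b-2-5p in lung against testicle spanned -0.08 to 0.41. In 8 of 18 left-out fits the TMM reference moved as well, to right eye 2 in 7 and to left testicle 3 in 1. The references left testicle 3 and right eye 2 with all libraries, and 7 left-out fits with the reference held at right eye 3, were added after seeing the data. With it held, the 4 members lower in eye against lung without right eye 2 came to 0, and those without right lung 1 to 1, while mmu-miR-29a-3p in eye against lung was 0.02 without right lung 2 and mmu-miR-29a-5p in eye against testicle -0.04 without right testicle 1 and -0.01 without right testicle 3. For other changes the cause was not tested. Low passenger counts limit the rest.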
